A study of Mus musculus with 4 samples.

Results

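The regions described here were the copies, in the mouse genome, of a pair of short DNA sequences from the long terminal repeats (LTRs) of intracisternal A particle (IAP) retrotransposons, one listed as a target of the KRAB zinc finger protein Gm21082 (IAPLTR1_Mm) and the other of Gm13157 (IAPLTR4). The copies were found by matching both sequences to mm9 with blastn, keeping matches of at least 80% of the sequence at 85% identity or more and an e-value of at most 0.001. This gave 3412 copies of the Gm21082 target and 314 of the Gm13157 target, 3726 in all. CpG methylation was then read within 1 kb of a copy, at sites with at least 10 reads in every library. These were 307 CpG sites for the Gm21082 target and 68 for the Gm13157 target, of 400195 such sites in the genome. The sets shared 5 sites, so 370 were distinct.

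The libraries were reduced representation bisulfite sequencing (RRBS-seq) of mouse ES cells, wild type (WT) or deleted for the Chr4-cl, a cluster of KRAB-ZFP genes on chromosome 4 (KO). The deletion was made with CRISPR/Cas9 in ES cells of the strain B6;129-Gt(ROSA)26Sor tm1(cre/ERT)Nat/J, and single clones were picked. Each genotype was kept in serum with LIF, or moved to 2i + Vitamin C for 1 week. There was 1 library per condition and hence no replicate, so that clone, culture and genotype cannot be told apart, and every test and interval below compares reads of libraries and covers counting error only. Read numbers over several sites count a read once at each CpG it covers. Intervals over several sites take the sites as independent and are too narrow even for counting error. Total CpG read counts ranged from 42684672 in KO 2i + Vitamin C to 90649194 in WT 2i + Vitamin C.

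KRAB zinc finger proteins bind transposable elements through their zinc finger arrays and recruit the corepressor KAP1, which brings H3K9me3 and helps maintain DNA methylation. IAP elements are endogenous retroviruses that still move in mice, and their LTRs hold the promoter. Most of the genome of ES cells loses CpG methylation in 2i with Vitamin C, while IAP elements are known to resist this loss. Both Gm21082 and Gm13157 are genes of the Chr4-cl.

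The targets are shown because every value below is placed relative to them. Capitals mark the CpG sites in the target sequences, 5′ to 3′, and the bases that differ from the target in the matches under them. Positions in a target are counted from 1 at its 5′ end.
Gm21082 target (IAPLTR1_Mm): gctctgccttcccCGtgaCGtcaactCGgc
Gm21082 copy with T21A, chr15:82146916-82146945, minus strand: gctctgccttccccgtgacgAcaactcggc
Gm13157 target (IAPLTR4): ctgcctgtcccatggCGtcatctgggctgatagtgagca
Gm13157 copy with A12G, chr7:23557513-23557551, plus strand: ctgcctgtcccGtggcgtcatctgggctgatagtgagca
Gm13157 copy with A12G, G17A and A32G, chr3:93642069-93642107, plus strand: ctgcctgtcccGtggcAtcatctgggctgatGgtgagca
The target listed for Gm21082 holds 3 CpG sites and that of Gm13157 holds 1. A12G makes a further CpG in the Gm13157 target, and G17A removes the CpG the target has.

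The copies found of the Gm21082 target were numerous and nearly alike. Of 3412 copies, 2110 matched the whole target with no difference, and the lowest identity was 96.3%. The e-value limit allows fewer differences in this 30-base target than in the 39-base Gm13157 target. The near-identity is therefore in part set by the search, and copies with more differences were not counted. Copies whose aligned part held no difference numbered 2152 (63.1%), and 1008 (29.5%) carried T21A as the single difference, which leaves the CpG sites of the target in place. The next most frequent, C13T, was found in 96 copies. Of 314 Gm13157 copies, 3 matched the whole target exactly, the median identity was 94.9%, and 240 copies carried A12G, alone or with other differences. A second match on the same strand 2 to 9 kb away, as the LTRs at both ends of one provirus would give, was present for 2531 Gm21082 copies (paired) and for 100 Gm13157 copies. The other 881 and 214 were single. On the chromosomes in the files, 2664 Gm21082 copies were intergenic, 701 lay in introns and 22 in exons. For Gm13157, 267 were intergenic and 41 intronic.

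Few copies could be read. The median copy had 2 MspI sites (ccgg) within 1 kb, and 305 of the 307 covered Gm21082 sites and 65 of the 68 covered Gm13157 sites lay within 50 bp of one. Sites with at least 10 reads in every library lay at 72 Gm21082 copies (2.11%) and 22 Gm13157 copies (7.01%). The covered Gm21082 copies had a median of 4 MspI sites within 1 kb against 2 for the others, and 65.3% were paired against 74.4%. The covered copies are therefore not an even sample of the family. Reads of near-identical copies align uniquely only where a flank or a difference sets them apart.

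In serum, both targets lay in highly methylated DNA in both genotypes. The mean over Gm21082 sites was 89.4% in WT and 89.3% in KO, and over Gm13157 sites 90.8% and 91.3%. The KO minus WT difference was -0.09 percentage points (95% counting interval -0.88 to 0.70) for Gm21082 and 0.48 points (-1.45 to 2.40) for Gm13157. Over all 400195 CpG sites with at least 10 reads in every library, the means were 27.4% and 30.5%, a difference of 3.12 points. Most of these sites, which RRBS-seq selects, were little methylated (median 2.82% in WT serum), so they do not stand for the genome. Tested site by site (Fisher's exact test on reads, two-sided, with Benjamini-Hochberg adjustment over all 400195 sites; a site was called at an adjusted p under 0.05 where the levels were 20 points or more apart), 1 Gm21082 site was lower and 1 higher in KO, and no Gm13157 site in either direction. Over all sites 0.115% were lower and 1.79% higher.

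In 2i + Vitamin C both targets retained most of their methylation, and KO retained less than WT. The mean over Gm21082 sites was 73.9% in WT and 67.2% in KO, 82.7% and 75.3% of the serum means. Over Gm13157 sites it was 72.0% in WT and 62.1% in KO, 79.2% and 68.0% of the serum means. The 82342 CpG sites farther than 1 kb from any copy that reached 80% in WT serum went from 91.2% to 49.99% in WT and from 92.0% to 45.5% in KO. The 281 Gm21082 sites that reached 80% in WT serum stood at 79.6% and 72.5%, and the 63 such Gm13157 sites at 74.4% and 64.5%. No test of this difference in retention was made, since neighbouring sites and copies of 1 library are not replicates.

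**Figure D1:**
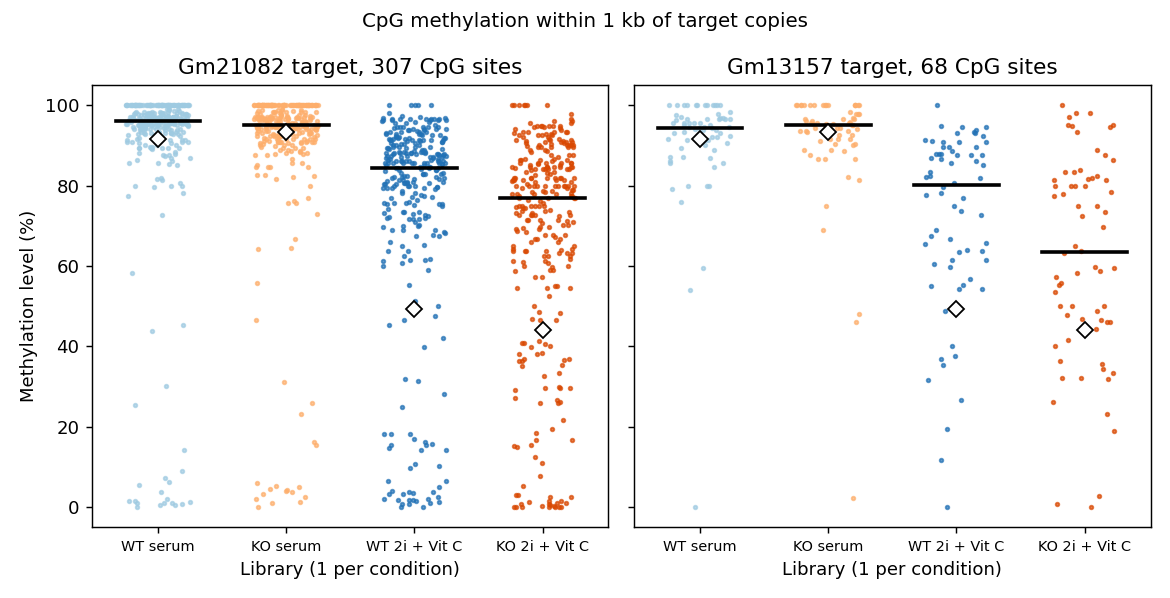
CpG methylation level (percent, y axis) in each of the 4 libraries (x axis) at sites within 1 kb of a copy of the Gm21082 target (left, 307 sites) or of the Gm13157 target (right, 68 sites). Each dot is a site, bars are medians, and white diamonds are the medians of 82342 sites outside the copies that reached 80% in WT serum; in 2i + Vitamin C the bars sit at 84.4% and 76.9% (Gm21082, WT and KO) and at 80.1% and 63.5% (Gm13157), above the diamonds at 49.2% and 44.0%.

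The KO minus WT difference in 2i + Vitamin C was -6.68 points (-7.71 to -5.66) over Gm21082 sites and -9.88 points (-12.2 to -7.55) over Gm13157 sites. The medians of the site differences were -3.60 and -8.73 points. Of 307 Gm21082 sites 203 were lower in KO and 101 higher, and of 68 Gm13157 sites 51 were lower and 16 higher. Over all CpG sites the mean difference was -1.74 points and the median -0.86, and 233776 sites were lower against 115600 higher. At the sites outside the copies that reached 80% in WT serum, the mean was -4.53 points and the median -4.43. With each copy counted once the Gm21082 difference was -4.98 points, and at sites covered in the 2i + Vitamin C libraries alone -4.74, both near the value of the methylated sites outside the copies. With reads pooled over sites it was -3.87 points, and 17 sites under 20% in WT serum, at 5 copies, held 36.0% of the KO and 37.6% of the WT reads. At sites with fewer reads, left out above, it was -16.1 points. The KO library in 2i + Vitamin C was thus lower than WT also at methylated sites outside the copies, and it had the fewest reads.

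By the same site test, 14 Gm21082 sites (4.56%) at 6 copies and 5 Gm13157 sites (7.35%) at 4 copies were lower in KO in 2i + Vitamin C, and none was higher. Over all sites 0.405% were lower and 0.0917% higher. Among sites of at least 80% in WT serum, 1.14% of all sites were lower, against 14 of 281 (4.98%) at Gm21082 copies and 5 of 63 (7.94%) at Gm13157 copies. Of the 14, 5 lay beside 1 copy and 4 beside another.

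Copy by copy, the loss was uneven. With the reads of a copy's sites pooled, 38 of 51 Gm21082 copies with 3 or more sites were lower in KO in 2i + Vitamin C and 13 higher, with differences from -40.9 to 12.4 points and a median of -5.30. The 95% Wilson intervals of the genotypes did not overlap at 15 copies, all lower in KO. These intervals count a read at every site it covers, so they are too narrow, and fewer copies may stand apart. Pooled levels weigh each site by its reads, and the spread of reads over sites can differ between libraries. For Gm13157, 13 of 14 copies were lower and 1 higher, from -21.0 to 5.83 points with a median of -4.63, and 3 had intervals apart, all lower. In serum the same 51 copies split into 24 lower and 26 higher, with a median of 0.041 points, and intervals were apart at 4 lower and 3 higher copies. At 34 of the 51 copies WT was still at 80% or more in 2i + Vitamin C, as KO was at 18.

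**Figure D2:**
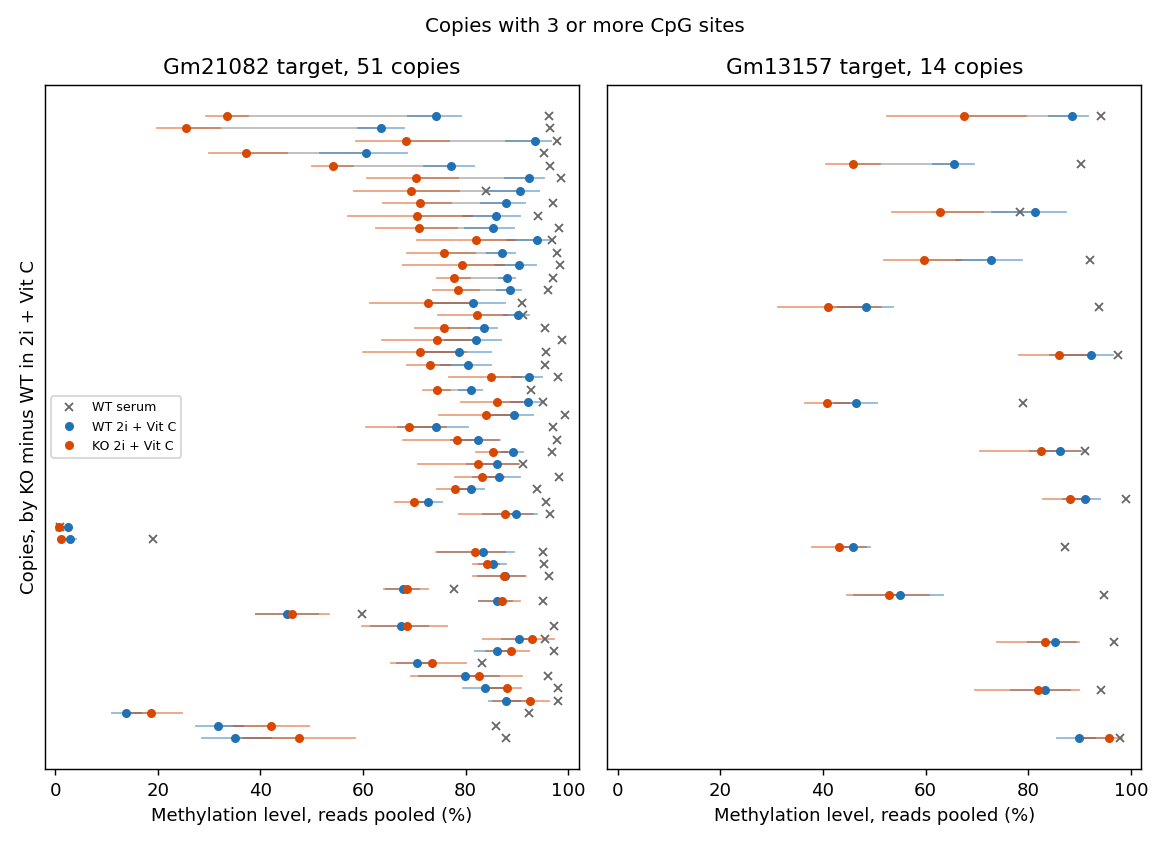
Methylation level (percent, reads of a copy's CpG sites pooled, x axis) of the 51 Gm21082 copies (left) and 14 Gm13157 copies (right) with 3 or more covered sites, ordered on the y axis by the KO minus WT difference in 2i + Vitamin C with the largest loss at the top. Blue and orange points are WT and KO in 2i + Vitamin C with 95% Wilson intervals, and crosses are WT serum; 38 and 13 copies are lower in KO.

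The largest loss among copies with 3 or more sites was at an exact Gm21082 copy, chr9:88962737-88962766 on the plus strand, paired, in an intron of the predicted gene Gm17683. Its 6 sites lay at -862 to -776 bp from the target, on its 5′ side. They stood at 96.2% in WT serum, 93.8% in KO serum, 74.3% in WT 2i + Vitamin C (68.8 to 79.1) and 33.4% in KO 2i + Vitamin C (29.4 to 37.6). KO in 2i + Vitamin C stood far below the other libraries, and 5 of the 6 sites passed the site test. The plus strand sequence around the sites, chr9:88961835-88962002, is printed with the covered CpG sites in capitals.
Gm21082 flank, chr9: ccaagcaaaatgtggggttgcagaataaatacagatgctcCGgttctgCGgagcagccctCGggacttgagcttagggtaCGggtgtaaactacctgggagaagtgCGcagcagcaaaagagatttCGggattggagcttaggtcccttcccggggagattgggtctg

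The second largest loss was at the single T21A copy shown above, chr15:82146916-82146945, 1928 bp from Wbp2nl, which encodes a sperm head protein. Its 5 sites lay 235 to 408 bp 3′ of the target. They read 96.5% in WT serum, 95.8% in KO serum, 63.6% in WT 2i + Vitamin C (59.0 to 67.9) and 25.5% in KO 2i + Vitamin C (19.8 to 32.2). Of these, 4 passed the site test, and the site farthest from the target went from 42.2% to 2.50% (adjusted p by Fisher's exact test on reads 0.00035). The plus strand of chr15:82146468-82146722 shows them as an isolated CpG and a cluster on the side of the target.
Gm21082 flank, chr15: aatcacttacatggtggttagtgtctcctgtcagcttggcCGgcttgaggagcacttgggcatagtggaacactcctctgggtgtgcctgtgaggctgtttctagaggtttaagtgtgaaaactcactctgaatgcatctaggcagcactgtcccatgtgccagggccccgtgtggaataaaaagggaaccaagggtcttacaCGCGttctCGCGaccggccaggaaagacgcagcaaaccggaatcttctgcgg

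Smaller losses followed. The paired exact copy at chr8:131081754-131081783, 52392 bp from Nrp1, a semaphorin and VEGF receptor gene, read 97.9% and 98.3% in serum and 93.6% in WT and 68.4% in KO in 2i + Vitamin C over 9 sites, yet no single site there passed the test. The single T21A copy at chr19:4958083-4958112, 4203 bp from the mitochondrial ribosomal protein gene Mrpl11, was lower in KO in serum too, 95.3% in WT against 79.9%, and was at 60.5% and 37.3% in 2i + Vitamin C. The site of the serum call lower in KO lay there. At chr11:80829295-80829324, a T21A copy in an intron of the sodium channel gene Accn1, the 4 values were 96.9%, 88.3%, 87.9% and 71.0% in the order WT serum, KO serum, WT and KO 2i + Vitamin C.

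Of the Gm21082 copies with the most sites, those near Nrp1 (9 sites, -25.2 points) and in Accn1 (8 sites, -16.9 points) are given above. The others moved less. The 12 sites at chr5:7938246-7938275, near the metalloreductase gene Steap4, read 92.7% and 88.6% in serum, then 81.0% (78.7 to 83.2) and 74.4% (71.7 to 76.9) after 2i + Vitamin C, WT first. One of the 12 passed the site test as lower in KO. The 10 sites at chr16:32200186-32200215, near Bex6, read 95.4% and 95.6% in serum, then 83.6% and 75.8% after 2i + Vitamin C. Copies do not by themselves mark methylated flanks. At chr7:70948666-70948695, near the deubiquitinase gene Otud7a, 9 sites at -746 to -389 bp from an exact copy, on its 5′ side, read 19.1% and 26.7% in serum, then 2.8% and 1.1% after 2i + Vitamin C.

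Among Gm13157 copies with 3 or more sites, the 3 largest losses with reads pooled were at copies that carry A12G and G17A. This ranking depends on the pooling. The copy at chr7:23557513-23557551, with A12G as its only difference, was lower in KO at all 7 of its sites, from -29.5 to -11.7 points. Another copy with both, chrX:4791799-4791837 (A12G, G14A and G17A), was among the smallest losses, -1.93 points over 4 sites. Whether these differences go with the loss was not tested. Copies with fewer sites ranged more widely. The copy at chromosome 6, 128695783, which carries A12G, G17A and A32G, differed by -43.6 points over 1 site with 13 KO reads. The copy at chromosome 2, 85320456, which lacks G17A, differed by -32.6 points over 2 sites and 25 KO reads summed over them. At the copy chr3:93642069-93642107 printed above, 11030 bp from the TD and POZ domain gene Tdpoz3, 3 sites read 94.2% and 92.6% in serum, then 88.4% (84.0 to 91.7) and 67.4% (52.5 to 79.5) after 2i + Vitamin C, the last over 43 reads summed over the sites. At chr15:45804368-45804406, with the same 3 differences, 5 sites read 90.3% and 94.5% in serum, then 65.6% (61.5 to 69.5) and 45.8% (40.6 to 51.1) after 2i + Vitamin C. At chr6:131152465-131152503, near the natural killer cell receptor gene Klra2, the values were 78.4%, 88.6%, 81.2% and 62.7%. The plus strand of chr15:45804263-45804476 is printed with its covered CpG sites in capitals, since they lie on both sides of the target.
Gm13157 copy and flanks, chr15: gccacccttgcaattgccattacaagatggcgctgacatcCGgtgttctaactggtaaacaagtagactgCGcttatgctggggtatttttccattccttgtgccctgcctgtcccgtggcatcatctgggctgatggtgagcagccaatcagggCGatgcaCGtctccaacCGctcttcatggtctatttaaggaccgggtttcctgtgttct

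Because the Gm13157 copies align with each other, the same CpG could be read in several. The CpG 65 bp 5′ of the target was covered at 9 copies and averaged 93.3% in WT serum, 93.9% in KO serum, 63.7% in WT 2i + Vitamin C and 53.7% in KO 2i + Vitamin C. It was lower in KO in 2i + Vitamin C at 6 of the 9. The range over copies in WT 2i + Vitamin C was 26.6% to 85.7% with a median of 66.7%, so that copies of the same CpG differed widely within a library. In KO 2i + Vitamin C it was 23.1% to 82.4% with a median of 48.7%. The CpG 35 bp 5′ of the target averaged 71.8% and 67.0% in 2i + Vitamin C over 7 copies. At chr7:67694277-67694315 (G33A), 4 sites read 92.0% and 91.5% in serum and 72.8% in WT and 59.6% in KO in 2i + Vitamin C. At chr11:7948245-7948283 near the tensin gene Tns3, 3 sites read 93.8% and 95.7% in serum, and 48.3% in WT and 40.9% in KO in 2i + Vitamin C, with overlapping intervals. The copy with the most sites, 7, at chr7:23557513-23557551, read 45.9% and 43.1%, and 2 of its sites passed the site test as lower in KO. On chromosome X, the copy at 4791799 read 85.3% and 83.3%, and the one at 79005688, whose 5 sites also lie by a Gm21082 copy, 86.1% and 82.5%. The copy at chr2:85312956-85312994 read 83.2% and 81.8%. Among copies with 3 or more sites the exception in direction was the gapped copy chr11:13566881-13566921, 90.0% in WT and 95.8% in KO. A copy on chromosome 6, at 131159772, was also higher in KO, 54.2% against 63.6%, over 1 site with 11 KO reads.

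A further Gm21082 copy lies on chromosome 18, at 21584896 to 21584925, 123953 bp from Klhl14, and is a single T21A copy. Its 6 sites read 96.4% in WT serum, 96.8% in KO serum, 77.1% in WT 2i + Vitamin C (71.8 to 81.6) and 54.1% in KO 2i + Vitamin C (50 to 58.1). It was the fifth largest loss among Gm21082 copies with 3 or more sites.

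By distance, Gm21082 sites 1 to 250 bp 3′ of the target averaged 84.8% in WT and 72.9% in KO in 2i + Vitamin C, a difference of -11.8 points (-14.4 to -9.26) over 57 sites at 18 copies. The next 250 bp gave 77.3% and 72.8%, a difference of -4.45 points (-6.20 to -2.70) over 117 sites. The 2 bins beyond gave -8.45 points (-11.0 to -5.90) over 48 sites and -6.10 points (-8.58 to -3.62) over 25, so that the difference did not fall steadily with distance. The farthest bin on the 5′ side gave -16.0 points over 17 sites, 6 of them from the chr9 copy above. The next 5′ bins toward the target gave -2.23 points (-5.51 to 1.05) over 20 sites and -3.95 points (-7.99 to 0.087) over 14. Both of these intervals held 0. The bin nearest the target on that side had 1 site, at 2.18 points. Gm13157 sites 1 to 250 bp 3′ gave 77.8% and 64.8%, a difference of -13.0 points (-16.4 to -9.60) over 30 sites. Those within 250 bp on the 5′ side gave -8.70 points (-12.9 to -4.49) over 24. Farther out few Gm13157 sites were read. The next 3′ bins gave -2.35 points over 2 sites and -0.14 points (-7.32 to 7.03) over 8. The farthest 5′ bin gave -16.8 points over 4 sites of 1 copy.

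**Figure D3:**
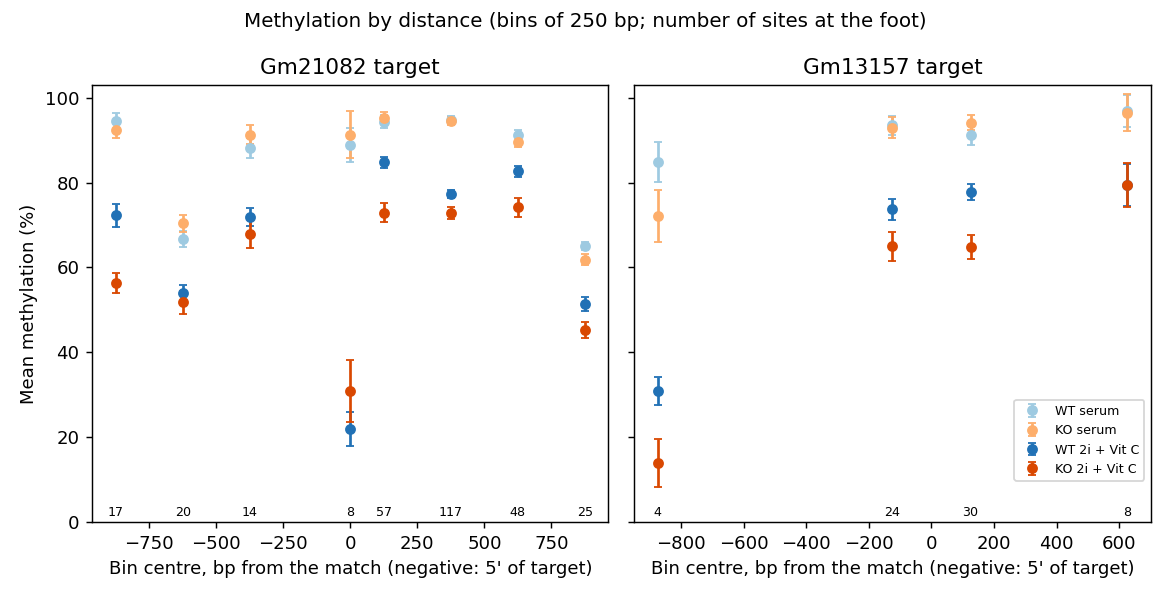
Mean methylation (percent, y axis) in bins of 250 bp by distance from the match (x axis, bin centres, negative values 5′ of the target, 0 for sites inside it), for the 4 libraries; bars are 95% counting intervals, the number of sites stands at the foot, and bins of fewer than 4 sites are left out. The 8 sites inside the Gm21082 target, which come from 4 copies, sit at 21.9% and 30.9% in 2i + Vitamin C, below every other bin of that target.

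At the few copies read inside the Gm21082 target the picture differed. Sites at positions 14 and 19 were covered in every library at 4 copies, all single and all with T21A. They averaged 88.9% in WT serum and 91.3% in KO serum. In 2i + Vitamin C they averaged 21.9% in WT and 30.9% in KO, a KO minus WT difference of 9.04 points (0.75 to 17.3). That interval takes positions 14 and 19 of a copy as independent, though the same reads can cover both. It is therefore too narrow, and its distance from 0 should not be relied on. At chr6:95012056-95012084, 55150 bp from Kbtbd8, the target read 79.6% and 93.8% in serum, then 12.5% (8.3 to 18.4) and 18.1% (10.9 to 28.5) after 2i + Vitamin C. At chr7:79637335-79637363 it read 87.9%, 84.6%, 29.9% and 40.7% in the same order. At chr6:100838052-100838081, near Ppp4r2, it read 97.2%, 90.9%, 25% and 33.3%, and at chr19:30346185-30346214, near Mbl2, 90.9%, 95.8%, 20.3% and 31.8%. Each of the 4 held a site called lower in 2i + Vitamin C than in serum. KO was above WT in 2i + Vitamin C at all 4, with overlapping intervals at each. Over all covered sites, some of them in the flank, the chr6:95012056 copy read 31.8% in WT and 42.0% in KO in 2i + Vitamin C. The chr7:79637335 copy read 35.1% and 47.4%. These were the largest gains in KO among Gm21082 copies with 3 or more sites. The place inside the target and these particular copies can therefore not be told apart. Over all CpG sites 26.0% were called lower and 0.149% higher in 2i + Vitamin C than in serum in WT, and 29.4% lower and 0.0290% higher in KO. Over the whole 1 kb windows, 64 of 307 Gm21082 sites and 20 of 68 Gm13157 sites were called lower in WT, and 106 and 30 in KO, shares of 20.8% and 29.4% in WT and 34.5% and 44.1% in KO. These counts share the 2i + Vitamin C libraries with the genotype comparison.

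Loss in 2i + Vitamin C with little difference between the genotypes was also seen beside a target. At chr16:13270627-13270656, a single T21A copy in an intron of the SRF coactivator gene Mkl2, 8 sites 283 to 441 bp 3′ of the target read 92.4% in WT serum, 88.5% in KO serum, 13.7% (11.2 to 16.7) in WT and 18.7% (14 to 24.6) in KO in 2i + Vitamin C.

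Not every T21A copy lost most of its methylation in the target. At chr17:32856854-32856883, 16557 bp from Cyp4f15, positions 14 and 19 read 94.7% and 96.3% in serum, and 88.2% (80.6 to 93.1) in WT and 87.5% (64.0 to 96.5) in KO in 2i + Vitamin C, the last over 16 reads summed over both positions. At the paired copy chr9:9921830-9921859, in an intron of the neuronal adhesion gene Cntn5, WT read 98.5% in serum and 80.4% in 2i + Vitamin C, and KO had no read in 2i + Vitamin C.

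**Figure D4:**
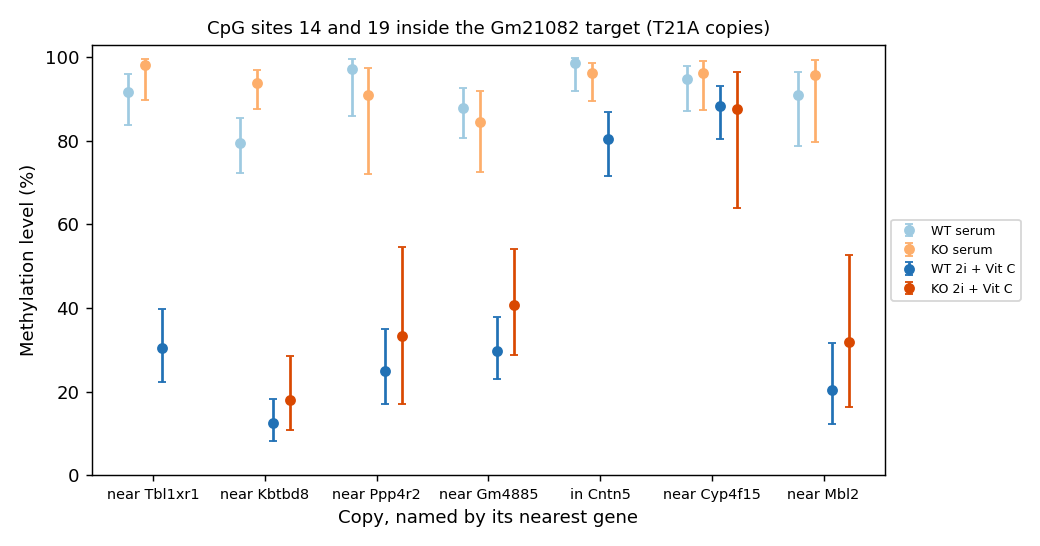
Methylation (percent, y axis) at positions 14 and 19 inside the Gm21082 target for the 7 copies (x axis, by nearest gene) where at least 3 libraries had 10 reads at both, with 95% Wilson intervals. In serum all values lie from 79.6% to 98.5%; in 2i + Vitamin C the copies near Kbtbd8, Ppp4r2, Gm4885, Mbl2 and Tbl1xr1 lie from 12.5% to 40.7%, and those in Cntn5 and near Cyp4f15 from 80.4% to 88.2%.

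Exact copies were seldom read in the target. Pooled over sites with any read, the CpG sites inside exact copies read 81.9% in WT serum over 144 reads and 75% (59.8 to 85.8) in WT 2i + Vitamin C over 40 reads, and 84.4% and 72.1% (67.4 to 76.3) in KO. Inside T21A copies the same pooling gave 87.5% and 43.1% (40.2 to 46.1) in WT and 91.5% and 45.0% (42.4 to 47.6) in KO. The libraries read different copies, so these levels are compared within a library only. In the 500 bp 3′ of the target, exact copies (78 sites, 18 copies) read 94.5% in WT serum and T21A copies (92 sites, 20 copies) 94.7%. In 2i + Vitamin C they read 86.2% and 74.0% in WT, and 78.6% and 68.1% in KO. The KO minus WT difference was -7.59 points (-9.82 to -5.35) beside exact copies and -5.93 points (-7.84 to -4.01) beside T21A copies. Whether the base itself or what else sets these copies apart goes with the level was not tested.

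Paired and single copies also differed in level. Paired Gm21082 copies went from 86.4% in WT serum to 76.9% in WT and 70.1% in KO in 2i + Vitamin C over 199 sites, and single copies from 94.8% to 68.3% and 61.8% over 108. The paired mean includes a few little-methylated sites, such as the 9 near Otud7a. The medians in WT serum were 95.6% (paired) and 96.4% (single), and in 2i + Vitamin C 86.0% and 79.8% in WT and 80% and 70.5% in KO. Paired Gm13157 copies stood at 78.3% and 71.3% over 33 sites, and single ones at 66.0% and 53.4% over 35. Gm21082 sites at intergenic copies differed by -7.30 points between the genotypes in 2i + Vitamin C (-8.56 to -6.04) and those at intronic copies by -5.30 points (-7.05 to -3.56), with overlapping intervals.

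The DNA between the matches of the Chr4-cl gRNAs, chr4:144973823-147227526, held 5 Gm21082 copies and 4 Gm13157 copies. Around the former, WT had 1058 reads in serum and 1264 in 2i + Vitamin C, against 7 and 17 in KO. Around the latter reads were few in WT too, 20 in serum and 5 in 2i + Vitamin C, against 0 and 3 in KO. No site there had 10 reads in every library, so none entered the values above.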

How the data were processed

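RRBS-seq was read from 4 libraries, 1 per condition. Per the study's methods, the authors trimmed reads with Trim Galore, aligned them to mm9 with Bismark and merged both strands of each CpG; versions are not given in the sources used here. The deposited tables hold, for each CpG, a count of reads, a second count for those methylated, and the fraction between them; only the counts were used. The WT serum and KO 2i + Vitamin C tables were each 2 tables joined end to end, with second tables of 1161870 and 1575598 rows. These second tables held no site near a copy with at least 10 reads in every library. Their rows were not left out where sites with fewer reads were used, as in the reads pooled inside the targets. Rows of repeated positions, 332 and 830, were left out. Each library had 591877 to 816807 sites of at least 10 reads.

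Target sequences came from the study's supplement and were matched with blastn 2.17.0 (blastn-short) to the NCBIM37 (mm9) assembly, with genes from GENCODE vM1; sequences printed are of that assembly. A site was given to its nearest match. Means carry 95% counting intervals summed over sites (Agresti-Coull variance), pooled levels 95% Wilson intervals, and sites were tested by Fisher's exact test (adjusted p under 0.05 and 20 points), checked on simulated counts. Copies named were, per target, the 5 largest losses and 3 largest gains in 2i + Vitamin C and the 5 with most sites, among copies with 3 or more sites, and those with a called site inside the target; others were named after their values were seen. The members, lists and tests were chosen with earlier results of these data known. The authors' repeat annotation was not used here.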

Additional observations from a re-analysis of the deposited data

Results flagged for a closer look

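The mean KO minus WT difference around Gm13157 copies had opposite signs in the media, 0.48 percentage points in serum and -9.88 points in 2i + Vitamin C. The serum interval included 0, and the serum value was below 0, so that the signs agreed, with reads pooled over sites (-1.63), at matches of at least 95% identity (-1.28) and with a minimum of 20 reads (-0.024). There was 1 library per condition, and the difference between the media was not tested.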

How the results depend on the processing

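All values are KO minus WT or 2i + Vitamin C minus serum differences in percentage points, or counts of sites lower or higher in KO; no difference whose counting interval left out 0 changed sign, and a difference not given here moved by less than its counting interval, a count not given by less than 1.5 times. The serum KO minus WT differences, whose intervals held 0, did change sign: Gm21082, -0.09, was 0.43 within 500 bp, 1.14 within 250 bp and 0.076 at sites covered in the compared libraries, and Gm13157, 0.48, was -1.63 with reads pooled, -1.28 at 95% identity and -0.024 with 20 reads. The cause of each move was not tested, beyond what a setting leaves out. With a minimum of 5 reads, Gm21082 moved from -0.09 to -0.98 in serum, from -6.68 to -5.52 in 2i + Vitamin C, and from -15.5 to -16.7 for the WT medium difference. With 20 reads, the medium differences were -17.6 (WT) and -23.2 (KO) for Gm21082 and -23.8 and -34.3 for Gm13157. At sites covered in the compared libraries alone, Gm21082 in 2i + Vitamin C was -4.74. Within 500 bp, the medium differences were -17.2 and -23.6 for Gm21082 and -16.6 (WT) for Gm13157, and 0 Gm21082 sites in serum and 7 in 2i + Vitamin C were lower. Within 250 bp, Gm21082 was 1.14 in serum and -9.11 in 2i + Vitamin C, with medium differences of -16.9 and -27.1 (Gm13157 WT -16.2), 0 sites lower and 0 higher in serum and 4 lower in 2i + Vitamin C. At 95% identity, Gm13157 was -12.5 in 2i + Vitamin C with 2 sites lower, and its medium differences were -21.9 and -33.1. With each copy counted once, Gm21082 was -4.98 in 2i + Vitamin C and -17.0 for the WT medium difference. With reads pooled over sites, Gm21082 was -1.09 in serum, -3.87 in 2i + Vitamin C, and -3.91 and -6.69 for the medium differences; Gm13157 was -1.63 in serum and -24.6 and -32.8. At sites under 10 reads in a library, chosen after seeing the data, Gm21082 was -16.1 in 2i + Vitamin C, and the KO medium differences were -30.9 (Gm21082) and -32.8 (Gm13157). With a change of 20 points and no test, 2 Gm21082 sites were lower and 5 higher in serum, 43 lower and 2 higher in 2i + Vitamin C, and 14 Gm13157 sites were lower. At 30 points, 0 Gm21082 sites were lower in serum and 1 Gm13157 site was lower in 2i + Vitamin C. With counts thinned to the smaller coverage, 0 Gm21082 sites were lower and 0 higher in serum, and 7 Gm21082 and 3 Gm13157 sites were lower in 2i + Vitamin C. Depth limits the site test most in KO 2i + Vitamin C, where the median covered Gm21082 site had 28 reads. No paired analysis was possible because each condition had 1 library.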
